A study of Mus musculus with 96 samples.

Results

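Principal neurons of the lateral superior olive (pLSOs) are the ascending output neurons of this auditory brainstem nucleus, and 52 of the 96 libraries of the series were taken from them. A library was counted as a pLSO when its label gave the firing pattern as pLSO_Onset or pLSO_Sustained, which holds for 56 libraries. Left out were cell_36, cell_40 and cell_54, whose label and expression disagree. Also left out was cell_39, for which the supplement of the study gives different values. This left 41 Onset neurons, which fired only at the start of a depolarising current step, and 11 Sustained neurons, which fired through the step.

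The data come from patch-seq of juvenile C57BL/6J mice, in which a neuron is recorded in an acute brainstem slice, its cytoplasm is aspirated through the recording pipette and 1 library is made of it. The labels give no genotype or treatment that differs between the groups. The other libraries are 30 lateral olivocochlear neurons (LOCs, label LOC_Delayed), of which 28 were used, and 10 negative controls, pipettes that touched the slice without patching a neuron, of which 8 were used. NC5 and NC6 were left out because they stand among the pLSOs in the cluster mean the study published, and 2 LOC libraries because they stand in neither cluster mean. No label names the animal, so each class counts as 1 sample. All shares below are counts over neurons, their exact Clopper-Pearson 95% intervals cover counting error only, and no test between groups was run. Where no neuron held a gene, the limit printed is 3 divided by the number of neurons.

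In textbook terms, pLSOs compare sound intensity between the ears. They receive glutamatergic excitation driven by the ipsilateral ear and glycinergic inhibition driven by the contralateral ear, and they send glutamatergic or glycinergic axons to the midbrain. LOCs lie in the same nucleus but send cholinergic and peptide-containing axons to the cochlea. Fast synaptic receptors, low-threshold potassium channels and hyperpolarisation-activated (HCN) channels give pLSOs their brief responses.

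Values are TPM, transcript abundances scaled to gene length and library depth, which the authors deposited as whole numbers, and a gene was counted as detected at 1 TPM or more. The number of genes detected in a pLSO was 1333 in the lowest neuron, 2560.5 in the median neuron and 6276 in the highest, with a mean of 2728 ± 825 (SD, n = 52). The 28 LOCs held between 1175 and 4408 genes and the 8 controls between 285 and 1271. Thus among the libraries kept no control reached the lowest pLSO, and pLSOs and LOCs overlapped over most of their range. This gap depends on the libraries left out. The labelled pLSOs cell_36 and cell_40 held 653 and 1002 genes, within the range of the controls, and the labelled control NC6 held 3104. cell_45, a Sustained neuron, held the 6276 genes, and cell_46, also Sustained, was next with 4751. No 2 libraries of the series had identical values. Since the files give no read counts, the depth behind a TPM value is unknown, and a TPM in a control is a share of a library with far fewer genes.

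**Figure D1:**
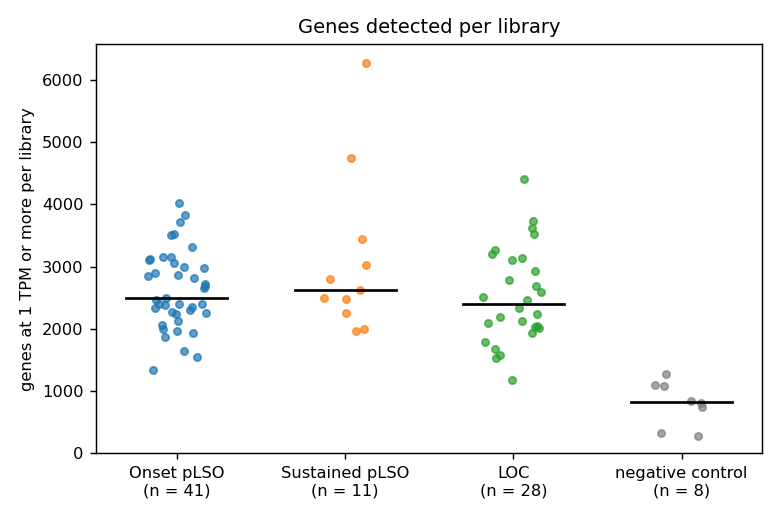
Genes at 1 TPM or more in each library (vertical axis, number of genes) for 41 Onset pLSOs, 11 Sustained pLSOs, 28 LOCs and 8 negative controls; each point is a library and the black line is the group median. All controls shown lie at or below 1271 genes and all pLSOs shown at or above 1333, and cell_45 stands alone at 6276. The libraries left out are not shown.

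The TPM scale changes along the table, whose rows follow the Ensembl identifiers. Among genes held by 10 or more pLSOs, the smallest positive value of a gene was typically (median) 12 TPM for the leading 500 rows. It was 5 TPM from row 501 to row 1500 and 1 TPM below that. The first 5000 rows held 94.6% of the TPM of the median pLSO, with 93.3% in the lowest and 95.9% in the highest neuron. TPM are therefore compared here between neurons for the same gene, and not between genes.

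The class was first described by 5 of its markers: Spp1 (osteopontin, a secreted phosphoprotein), Lpgat1 (a lysophospholipid acyltransferase), Kcnh7 (a potassium channel of the ERG family), Rorb (a nuclear receptor) and Slc17a6 (VGLUT2, which loads vesicles with glutamate). Of the 52 neurons, 21 held all 5 markers, 19 held 4, 9 held 3 and 3 held 2. Thus 40 neurons (76.9%, interval 63.2% to 87.5%) held at least 4, whereas no LOC held 3 or more and no control held more than 3. LOC markers were sparse in the class: of 12 in the table, the median pLSO held 0 and no pLSO held more than 3, while the median LOC held 8. Of these, Ucn (urocortin), Isl1 (a LIM homeodomain factor), Chat (which makes acetylcholine), Col4a3, Col4a4 and Uts2b were at 0 in all 52 neurons, which allows a share of up to 5.77% each. At a detection threshold of 10 TPM, 50.0% of the neurons held at least 4 of the 5 markers. Over all 56 labelled pLSOs the share was 71.4%. The markers were chosen with earlier results of these data known, and the 4 libraries were left out on their expression values. The counts over 52 neurons are therefore a description and no independent check of the label.

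Spp1 (chromosome 5, 104435118 to 104441050, GRCm38) was held by 50 pLSOs (96.2%, interval 86.8% to 99.5%), at 0 TPM in the lowest, 273 TPM in the median and 935 TPM in the highest neuron. It was held by 1 of 28 LOCs, at 1 TPM, and by 4 of 8 controls, with a highest value of 229 TPM. The median pLSO therefore stood above every control, but the lower quartile of 113 TPM did not. The Spp1 signal was present in all 11 Sustained and 39 of 41 Onset neurons.

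Lpgat1 (chromosome 1, 191717834 to 191784255) was likewise held by 50 pLSOs, with 169 TPM in the median and 1021 TPM in the highest neuron. Unlike Spp1 it was also held by 13 of 28 LOCs, at no more than 147 TPM, and by 3 controls at up to 297 TPM. The pLSO median of Lpgat1 was above the highest LOC.

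Kcnh7 (chromosome 2, 62693414 to 63184287) was detected in 40 pLSOs, with 10.5 TPM in the median and 89 TPM in the highest. Only 1 LOC and 1 control held it, at 1 and 2 TPM. Rorb (chromosome 19, 18930605 to 19111196) was detected in 38 pLSOs, with 6 TPM in the median and 136 TPM in the highest, and in none of 28 LOCs, which allows a share of up to 10.7%. It was nonetheless held by 2 controls, with up to 65 TPM. Slc17a6 (chromosome 7, 51622006 to 51671119) was detected in 36 pLSOs, with 17.5 TPM in the median and 390 TPM in the highest. It was also in 7 LOCs and in 3 controls, and its highest control, at 28 TPM, stood above the pLSO median. Its highest LOC, cell_76, stood at 8.27 in log2(TPM + 1), against 8.61 in the highest pLSO. These 3 genes were thus missed in between 12 and 16 of the 52 neurons.

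The 4 libraries left out held between 1 and 3 of these markers. cell_39 held 493 TPM of Lpgat1 and 4 TPM of Kcnh7, and was at 0 for the other 3. cell_36 held 1229 TPM of Lpgat1 and 16 TPM of Slc17a6, with no Spp1, among 653 detected genes. cell_40 held 1 TPM of Spp1, 4 TPM of Lpgat1 and 10 TPM of Slc17a6 among 1002 genes, and thus as many markers as 9 of the neurons that were kept. cell_54, labelled Sustained, held 1 TPM of Lpgat1 and none of the other 4, with 1887 TPM of the LOC marker Calca (calcitonin gene-related peptide). In 3 further neurons that were kept, cell_31, cell_33 and cell_35, the supplement of the study gives different values for the library name, so the link of these libraries to their recordings is uncertain.

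**Figure D2:**
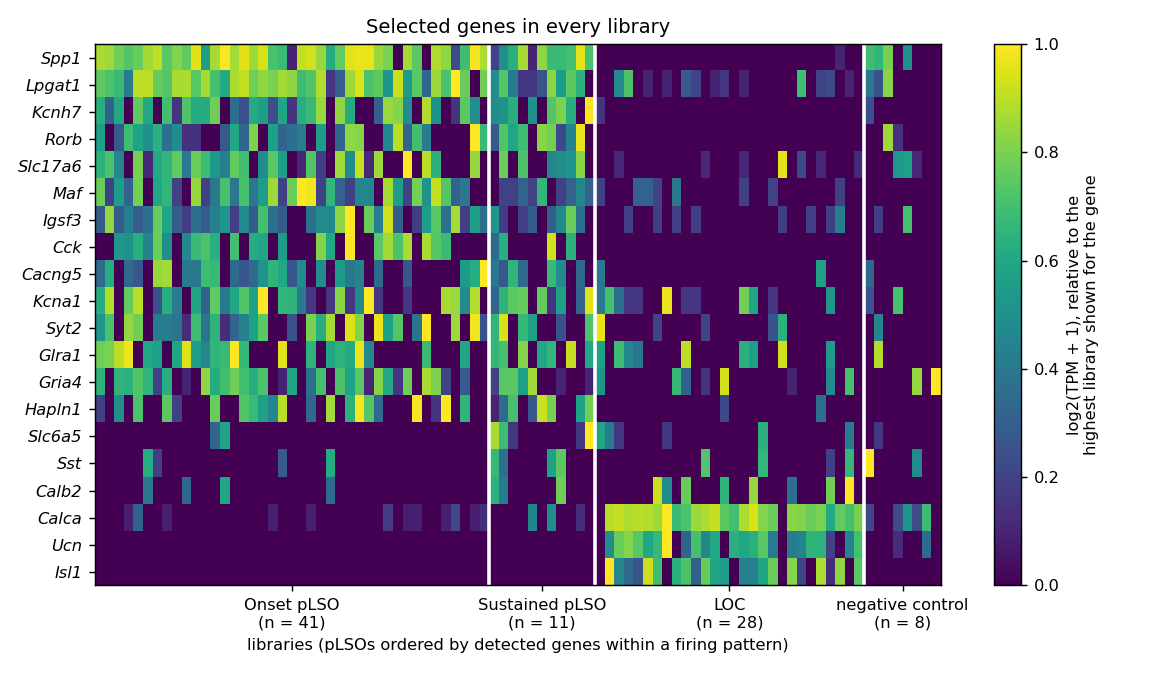
Level of 20 selected genes (rows) in 52 pLSOs, 28 LOCs and 8 negative controls (columns); colour is log2(TPM + 1) relative to the highest library shown for that gene, so colours compare libraries within a row only. Spp1 and Lpgat1 fill nearly all pLSO columns, Kcnh7, Rorb and Cck are gapped, Sst and Calb2 fill few, and Calca, Ucn and Isl1 fill the LOC columns.

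Few genes were found in nearly every pLSO. Of 14346 genes detected in at least 1 of the 52 neurons, 87 (0.606%) were held by at least 95% of them, 41 of these by all 52, and 350 (2.44%) by at least 80%. A further 4397 genes (30.6%) were held by 20% to 80%, and 9599 by less than 20%. Most of the 87 genes were also in the background: 64 were in 4 or more of 8 controls, and only 3 in at most 1 control. These were Zwint (ZW10 interactor, 51 neurons, 0 controls), Ndufb2 (a subunit of respiratory complex I, 50 neurons, 1 control) and Selenow (selenoprotein W, 50 neurons, 1 control). With NC5 and NC6 among the controls, 0 genes met both conditions. Of the 87 genes, 79 were also in at least 80% of the LOCs. The 87 genes became 44 at a threshold of 10 TPM and 223 in the 26 neurons with more detected genes.

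For Zwint, the lowest pLSO was at 0 TPM, the median at 1044.5 TPM and the highest at 5050 TPM, and all 8 controls were at 0 TPM. The LOC median of 2076 TPM was higher than that of the pLSOs. Ndufb2 had a median of 1787 TPM in the pLSOs, and its only control had 255 TPM.

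For 20 of the 87 genes (23.0%) the median over pLSOs exceeded the highest control, against 449 of 1397 genes (32.1%) held by at least 50% of the pLSOs. Ckb (brain creatine kinase, which buffers ATP) lay between 4440 and 120738 TPM with a median of 39122 TPM, and the controls reached 19585 TPM. Ptprd (a synaptic receptor tyrosine phosphatase) lay between 5 and 323 TPM in all 52 neurons with a median of 114.5 TPM, against no more than 13 TPM in the 2 controls that held it. The LOC median of Ptprd was 1 TPM, and 18 of 28 LOCs held it. Atp1b1 (the beta subunit of the sodium pump) had a median of 618 TPM and a highest control of 122 TPM, and Clasp2 (a microtubule plus-end protein) had a median of 48 TPM and a highest control of 13 TPM. Ywhaz (an adaptor of the 14-3-3 family) had a median of 759.5 TPM, against 574 TPM in the highest of the 2 controls that held it.

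The other genes that led the ranking by number of neurons were above their pLSO median in at least 1 control, except Tuba1b (a tubulin, median 660 TPM, highest control 444 TPM). They were Pvalb, Atp5f1 and Atp5g1 (both of ATP synthase), Ddx5 (an RNA helicase), Mdh1 (malate dehydrogenase), Ppia (a prolyl isomerase), Stmn3 (a stathmin), Hspa8 and Hsp90ab1 (chaperones) and Ldhb (lactate dehydrogenase B). Pvalb (parvalbumin, a calcium buffer of fast-spiking neurons) was at 556 TPM in the lowest, 3382 TPM in the median and 12791 TPM in the highest pLSO. It was in 25 of 28 LOCs, with a median of 100 TPM and a highest value of 2121 TPM, and in 5 of 8 controls, where the highest value was 25724 TPM. The presence of Pvalb in every pLSO thus coincided with its presence in slice material.

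Genes that were common in pLSOs and nearly absent from controls give a view less exposed to slice RNA. Of the 350 genes in at least 80% of the neurons, 67 were in at most 1 control. The symbols of 12 of these begin with Nduf, Uqcr, Cox or Cyc1, names used for respiratory chain genes. This share was not compared with that over all genes. The other genes of the 67 include Mpc1 (the mitochondrial pyruvate carrier, 48 neurons), Rbm39 (a splicing factor, 48 neurons) and Nptn (neuroplastin, a synaptic adhesion protein, 47 neurons), each in 0 controls. Also in 0 controls were Syt1 (synaptotagmin 1, 46 neurons), Maf (a leucine zipper transcription factor, 45 neurons), Csmd3 (44 neurons) and Glrb (the glycine receptor beta subunit, 43 neurons). Of the 67 genes, 3 were in less than 50% of the LOCs. A count of 0 of 8 controls still allows a share of up to 37.5%.

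Gene lists chosen for the class differed in how completely they were seen, and the share of a list is read against the 2.44% of all genes at 80% or more. Energy supply genes led, with 17 of 20 in at least 80% of the pLSOs and the remaining 3 (Ckmt1, Cs and Ldha) at 20% to 80%, for a median share of 96.2% of neurons against 11.5% over all detected genes. However, 15 of the 20 were in 4 or more controls. Ckb, Ldhb, Atp5b (ATP synthase), Mdh1, Aldoa (aldolase), Slc25a4 (the ADP/ATP carrier) and Ndufa4 were in all 52 neurons. Ckmt1, a mitochondrial creatine kinase, was in 39 neurons, with a median of 8990 TPM and a highest value of 87116 TPM. Ldha was in 17 neurons, far fewer than Ldhb.

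Neurofilament and axonal cytoskeleton genes had 9 of 16 members at 80% or more and 6 at 20% to 80%. However, 11 of the 16 were in 4 or more controls, and 10 were in at least 80% of the LOCs. Nefm, Stmn3 and Map1b were in all 52 neurons, Nefl in 51, Tuba1a in 50, Stmn2 and Map1a in 49 each and Nefh in 48. Prph (peripherin) was the only member under 20%, with 3 neurons against 10 of 28 LOCs. The neuron-wide genes had 8 of 15 at 80% or more, led by Rtn1, Stmn3 and Snap25 in all 52 neurons. Of these 15 genes, 7 were in 4 or more controls, and 8 were in at least 80% of the LOCs. Rbfox3 (NeuN), often used as a general neuron marker, was in 16 neurons, and Syn1 (synapsin 1) in 19. Elavl4 was in 26, Thy1 in 37, Tubb3 in 39 and Nsg1 in 40.

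**Figure D3:**
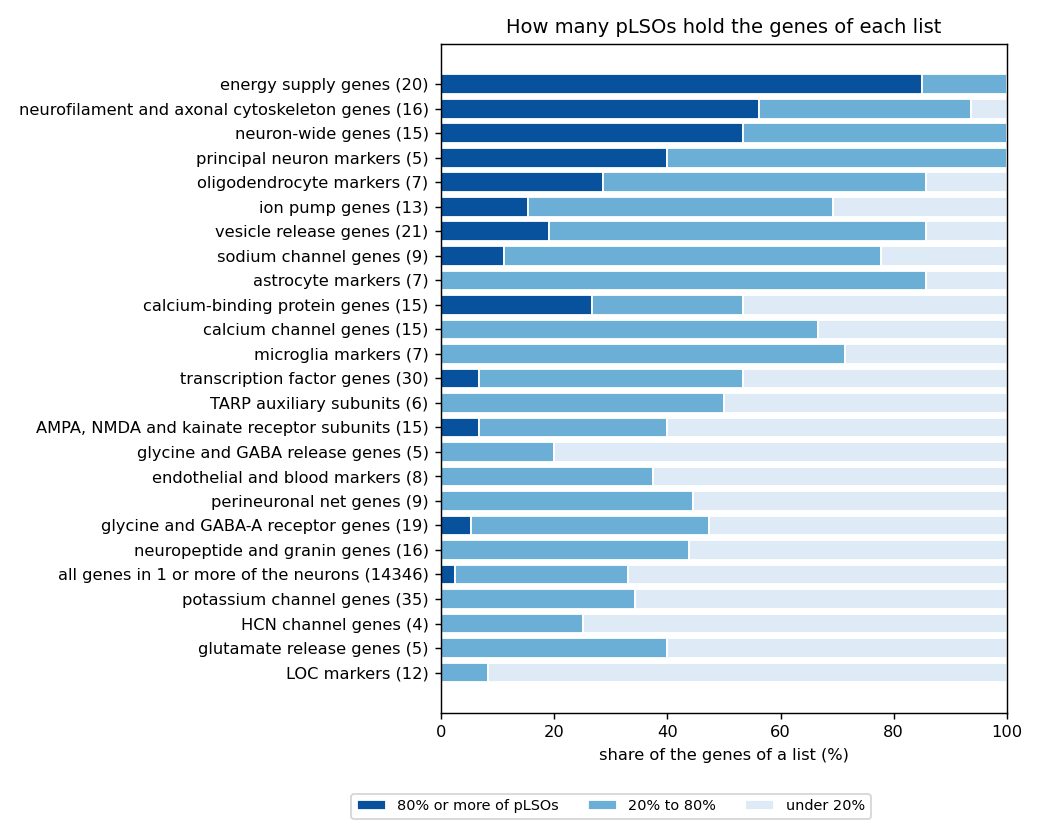
Share of the genes of each list (horizontal axis, percent; number of genes in the table in parentheses) held by 80% or more, 20% to 80% or under 20% of the 52 pLSOs, ordered by median share. Energy supply, cytoskeleton and neuron-wide genes stand at the top, and HCN, glutamate release and LOC marker lists at the bottom.

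Among transmitter genes, the vesicular transporters were uneven. Slc17a6 was in 36 neurons, while Slc17a7 and Slc17a8, the other vesicular glutamate transporters, were at 0 in all 52. Slc6a5 (GlyT2, the plasma membrane glycine transporter of glycinergic neurons) was in 7 neurons, 5 of 11 Sustained and 2 of 41 Onset, at between 1 and 70 TPM. Among the Sustained neurons, cell_53 and cell_56 held only 1 TPM, and cell_45 and cell_46 were the libraries with the most detected genes. Slc6a5 was also detected in a control and in a larger share of the LOCs than of the pLSOs. Slc17a6 and Slc6a5 were both detected in 4 pLSOs, Slc17a6 alone in 32, Slc6a5 alone in 3 and neither in 13. Slc32a1 (the vesicular inhibitory amino acid transporter) was seen in a single neuron at 1 TPM. Gad1 and Gad2, which make GABA, were in 9 and 13 neurons at medians of 1 and 4 TPM in the neurons that held them. Gad2 was in 20 of 28 LOCs and in 3 controls.

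Glutamate receptor subunits were held by a median of 17.3% of neurons per gene, with 1 of 15 at 80% or more, 5 at 20% to 80% and 9 below. Gria2, the AMPA receptor subunit that limits calcium entry, was in 42 neurons, with 16.5 TPM in the median and 154 TPM in the highest, and in 4 controls. Gria4, the subunit known for fast kinetics in auditory neurons, was in 38 neurons, with 59.5 TPM in the median and 496 TPM in the highest neuron, and in 8 of 28 LOCs. Its highest control stood at 10.3 in log2(TPM + 1) and its highest LOC at 9.61, both above the highest pLSO at 8.96. Gria1 was in 22 and Gria3 in 17 neurons, the latter with no control. The NMDA receptor genes Grin2b and Grin1 were in 33 and 26 neurons, and Grin2a and Grin2c were at 0 in all 52. Grin2b was in 10 of 11 Sustained and 23 of 41 Onset neurons. Of the auxiliary subunits, Cacng5 (TARP gamma-5) was in 34 neurons at a median of 3 TPM and a highest of 55 TPM, and Cacng2 and Cacng4 in 17 each.

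Inhibitory receptor genes were led by Glrb, in 43 neurons and in 0 controls, with 48.5 TPM in the median and 243 TPM in the highest neuron. Its adult-type partner Glra1 was in 30 neurons, in 9 LOCs at up to 4199 TPM and in 1 control at 2806 TPM. That control stood above the upper quartile of 397.75 TPM over the 52 pLSOs. The values of Glra1 ran from 62 TPM in the lowest neuron that held it to 7957 TPM in the highest, with a median of 379.5 TPM among these neurons. Glra2, known as the neonatal subunit, was in 4 pLSOs and 11 LOCs, and Glra3 and Glra4 were at 0 in all 52 neurons. Gphn (gephyrin, which anchors glycine and GABA-A receptors) was in 24 neurons, and the GABA-A receptor genes Gabra5, Gabrd and Gabrb2 were in 15, 13 and 12. Gabrb1 was at 0 in the pLSOs and in 8 of 28 LOCs. In all, 1 of 19 genes of this list was at 80% or more and 8 were at 20% to 80%.

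Sodium channel genes were led by Scn1a (Nav1.1), in 47 neurons, with 10.5 TPM in the median and 71 TPM in the highest neuron, against up to 2 TPM in the 2 controls that held it. Scn8a (Nav1.6) was in 27 neurons, the auxiliary subunit genes Scn2b and Scn4b in 16 each, Scn2a in 14 and Scn3a in 13. Scn4b was seen in 1 LOC, whereas Scn3a was in 23 of 28 LOCs. Thus 1 of 9 genes was at 80% or more and 6 were at 20% to 80%.

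None of 35 potassium channel genes was in 80% of the pLSOs, 12 were at 20% to 80% and 7 at 0. After Kcnh7, the most frequent was Kcna1 (Kv1.1, a low-threshold channel), in 39 neurons, with 6 TPM in the median and 77 TPM in the highest. Kcna1 was also detected in LOCs and in controls, and its highest control stood above the pLSO median. Kcnip1 and Dpp6, partners of Kv4 channels, were in 27 neurons each, Kcnab3 in 22, and Kcnq3 and Kcnc1 (Kv3.1) in 18 each. Kcnab2 was in 14 and Kcnab1 in 13 neurons. Kcnip1 was in 1 of 28 LOCs and in 0 controls. Kcna2, often paired with Kcna1 in the same channels, was in 4 neurons.

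HCN channel genes were sparse, with 1 of 4 at 20% to 80%. Hcn2 was in 4 neurons, Hcn4 in 2 and Hcn3 in none. The sag amplitude, the voltage measure of the current that HCN channels carry, was above 0 in all 52 neurons, between 1.8 and 18.5 mV.

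No calcium channel gene reached 80%, and 10 of 15 were at 20% to 80%. Cacna1a (P/Q-type) and Cacnb4 were in 28 neurons each, Cacna1b (N-type) in 21, Cacna2d1 in 17, and Cacna2d2 and Cacnb2 in 16 each. Cacna1g and Cacna2d3 were in 14 and Cacna1d and Cacna1e in 13 neurons, the last against 21 of 28 LOCs. Among calcium-binding proteins, Calm2 (calmodulin) and Pvalb were in all 52 neurons, Calm3 in 47 and Vsnl1 (visinin-like 1) in 42. Hpcal1 was in 17, Hpca and Cabp1 in 16 each and Ncs1 in 14 neurons. Calb1 (calbindin) was in 5 neurons at no more than 2 TPM and Calb2 (calretinin) in 7.

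Vesicle release genes had 4 of 21 members at 80% or more and 14 at 20% to 80%. Snap25 was in all 52 neurons, Cplx1 (complexin 1) in 47, and Syt1 and Vamp2 in 46 each. Nsf was in 38 neurons, Syt2, the fast calcium sensor of auditory synapses, in 36, and Vamp1 and Syp in 35 each. Syt1 lay between 0 and 75 TPM with a median of 18.5 TPM, with no control above 0. Among ion pumps, Atp1b1 was in all 52 neurons. Atp2b2 (a plasma membrane calcium pump) was in 38, Atp2a2 and Atp2b1 in 36 each, and Slc12a5 (KCC2, which lowers chloride) in 31. Slc12a2 (NKCC1, which raises chloride) was in 13.

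Perineuronal net genes were found in part of the class. Hapln1, a link protein of the net, was in 29 neurons, 2 LOCs and 0 controls, with a median of 136 TPM in the neurons that held it and 1481 TPM in the highest. Bcan (brevican) was in 22, Ncan (neurocan) in 18, Hapln4 in 11, Tnr (tenascin R) in 8 and Acan (aggrecan) in 6 neurons. Unlike Hapln1, Ncan was as frequent in LOCs (35.7%) as in pLSOs (34.6%), and it was in 2 controls. Bcan was in 9 LOCs and 0 controls, Hapln4 in 5 LOCs and 2 controls, and Tnr in 3 LOCs and 1 control. The highest control of Ncan, at 18002 TPM, stood above its highest pLSO at 8584 TPM. For Hapln4 these values were 5443 and 3939 TPM. In total 4 of 9 genes were at 20% to 80% and none above.

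Neuropeptide and granin genes were led by proteins of dense-core vesicles: Chga, Chgb and Pcsk1n were in 41 neurons each and Scg5 in 40. Chga (chromogranin A) was in no control, with 93.5 TPM in the median and 971 TPM in the highest neuron, and in 14 of 28 LOCs. Cck (cholecystokinin) was in 28 pLSOs and in no LOC or control. Where detected it lay between 4 and 105 TPM with a median of 21 TPM, in 24 of 41 Onset and 4 of 11 Sustained neurons. Scg2 was in 24 and Scg3 in 21 neurons. Sst (somatostatin) was in 8 neurons and Adcyap1 in 3. Vip and Pdyn were at 0 in all 52.

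Among transcription factor genes, 2 of 30 were in at least 80% of pLSOs and 14 at 20% to 80%. Maf was in 45 neurons, 8 LOCs and 0 controls, at low values between 0 and 32 TPM with a median of 3 TPM. Tcf4 was in 39, Rora in 36, Meis2 in 32, Zfhx3 in 21, Nfib in 17, Nfia in 15 and Foxp2 in 12 neurons. Immediate early genes, which are induced by activity or tissue handling in general, were frequent. Fos was in 43 neurons, with a median of 468 TPM and a highest value of 2727 TPM, Egr1 in 31 and Nr4a1 in 19. Fos was also in 20 of 28 LOCs, with a median of 411.5 TPM, and in 1 control at 51160 TPM.

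The genes held by part of the neurons were also counted apart in the neurons with more and with fewer detected genes, a split in which the typical gene must on average be seen more often in the former. Of the 4397 genes at 20% to 80%, 3548 were in at most 1 control, and the typical (median) gene of these was in 11 of the 26 pLSOs with more detected genes (2618 or more) and in 7 of the 26 with fewer (2503 or less). Only 492 of the 3548 genes were in at least as many of the neurons with fewer genes. Several genes named above were nearly as frequent in the neurons with fewer genes: Kcnh7 was in 21 and 19, Maf in 23 and 22, Lrfn5 in 20 and 20 and Tshz2 in 18 and 18 neurons. Others were not, such as Vamp1 with 23 and 12, Dpp6 with 19 and 8 and Ptprk with 21 and 10 neurons. Cck stood between these with 16 and 12.

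Ranked by the SD over neurons of log2(TPM divided by the smallest positive value of the gene, plus 1), the 20 most variable protein-coding genes had SDs between 4.42 and 5.05, against a median of 2.15 over the 3548 genes. All 20 came from table rows up to row 5000, whose TPM are scaled up, so this order was not read as a biological one. The genes were Hars, C1d, Use1, Prpf6, Bcap31, Pafah1b2, Ndrg2, Jkamp, Por, Pgrmc1, Srp14, Fsd1, Evi5, Ccnt1, Surf1, Srsf6, Coa3, Ccl4, Sgk1 and Sept4. Most have roles in all cells, such as Hars (histidyl-tRNA synthetase), which was in 29 neurons with 7.5 TPM in the median and 11459 TPM in the highest. Sgk1 (a stress- and hormone-induced kinase) was in 40 neurons and in 0 controls, with 56 TPM in the median and 11284 TPM in the highest. Ccl4, a chemokine known from activated microglia, was in 25 neurons and 0 controls, at up to 4506 TPM.

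Co-detection was examined for 23 genes held by 10% to 90% of the pLSOs, which make 253 pairs. The phi coefficient, which is 1 when both genes are always seen together and 0 when their detection is unrelated, had a median of 0.056, with quartiles of -0.051 and 0.17. Only 14 pairs reached 0.3 and 2 pairs lay at -0.3 or lower. All pairs share the libraries and their depth, and with 52 neurons these coefficients are descriptions.

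The highest phi was that of Sst and Calb2 (0.61): 5 neurons held both, 3 only Sst, 2 only Calb2 and 42 neither. It was 0.50 in the 26 neurons with more detected genes and 0.80 in the others. Sst was at 14 TPM in cell_2, 349 in cell_21, 5 in cell_22, 332 in cell_37, 548 in cell_45, 32 in cell_46, 1162 in cell_49 and 229 in cell_52. Of these 8 neurons, 4 were Sustained. Calb2 was at 131 TPM in cell_3, 25 in cell_21, 17 in cell_37, 14 in cell_38, 191 in cell_45, 32 in cell_46 and 635 in cell_49. The neuron with the highest Sst, cell_49, thus also had the highest Calb2, and it held 2487 genes, close to the class median. cell_45 and cell_46, the neurons with the most detected genes, both belong to the 5, and without them phi was 0.49. Calb2 was in 0 controls, but Sst was in 2 controls at up to 12587 TPM, and the part of slice RNA in this pair was not tested.

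Maf had the lowest coefficients. It was absent from 7 neurons, of which 4 held Sst or Calb2. Phi was -0.34 with Calb2 and -0.30 with Sst, and in the pair with Calb2 it changed from -0.74 in the neurons with more genes to 0.12 in those with fewer. Low values were also those of Rorb and Hapln1 (-0.28) and Gad1 and Igsf3 (-0.27). For Rorb and Hapln1 phi was 0.015 in the neurons with more genes and -0.57 in those with fewer. For Gad1 and Igsf3 it was -0.23 and -0.33.

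Other high pairs were Slc6a5 and Scn4b (0.47), Cacng5 and Kcna1 (0.42) and Kcnc1 and Acan (0.37). Of the 7 neurons with Slc6a5, 6 also held Scn4b, an auxiliary sodium channel subunit linked to rapid firing, against 10 of the other 45. Cacng5 and Kcna1 were seen together in 30 neurons and both were missing in 9, and phi was 0.43 and 0.39 in the neurons with more and with fewer genes. The coefficient of Cacng5 with Kcna1 was therefore similar at both depths, whereas that of Slc6a5 with Scn4b was 0.57 and 0.23.

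**Figure D4:**
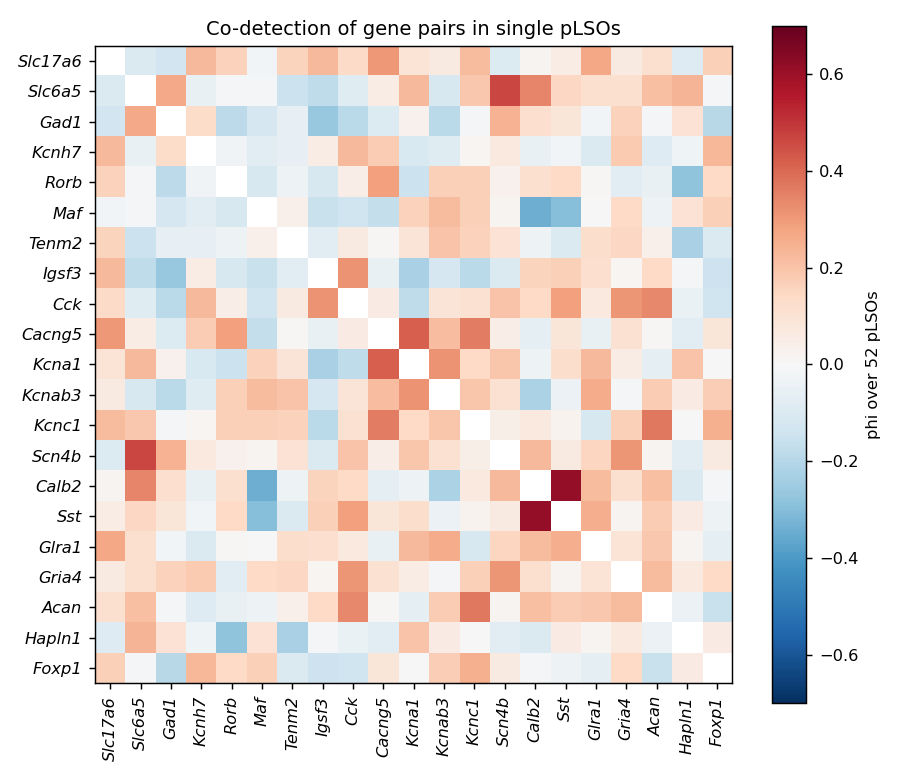
Phi coefficient of detection over 52 pLSOs for the pairs of 21 of the 23 genes (rows and columns in the same order; red for genes seen together, blue for genes seen apart, diagonal left blank). Sst and Calb2 form the darkest red square at 0.61, and most of the other pairs are pale.

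Against the LOCs, 8725 genes held by at least 10% of either class were compared by their shares. In pLSOs the share was higher by 50 percentage points or more for 19 genes (0.218%) and lower by as much for 21 genes (0.241%). The count of 19 differed with the pLSOs and threshold used: it was 69 with the 26 pLSOs that held more genes, 10 with the 26 that held fewer and 8 at a threshold of 10 TPM. The largest positive differences were those of Spp1 (92.6 points), Kcnh7 (73.4), Rorb (73.1), Plk5 (71.4), Lrfn5 (69.8), Bhlhe40 (59.6), Cacng5 (58.2), Maf and Igsf3 (57.97 each) and Ptprk (56.04). Plk5, a polo-like kinase of neurons and glia, was in 39 pLSOs with a median of 25 TPM and a highest value of 389 TPM, and in 1 LOC at 15 TPM. Lrfn5, a synaptic adhesion protein, was in 40 pLSOs including all 11 Sustained neurons, and in 2 LOCs. Bhlhe40, a transcriptional repressor of the clock and stress response, was in 31 pLSOs and no LOC, but in 2 controls at up to 103 TPM.

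Igsf3, an adhesion protein of the immunoglobulin family, was in 45 pLSOs at a median of 3 TPM and in 8 LOCs. It was also detected in the controls NC2 and NC7, in NC7 at 3.81 in log2(TPM + 1), above the pLSO median. Ptprk, a receptor tyrosine phosphatase, was in 31 pLSOs with up to 2188 TPM and in 1 LOC at 483 TPM. The remaining genes of the 19 were Tshz2, Tenm2, Tgfb2, Cck, Ryr3, A830018L16Rik, Parp8, Syt2 and Nebl. On the scale of mean log2(TPM + 1), which depends on the TPM scale of each gene, the difference of pLSO minus LOC was 7.20 for Spp1, 2.89 for Kcnh7, 2.82 for Rorb and 1.82 for Maf. Of the 19 genes, 6 were in 0 controls, namely Maf, Ptprk, Tshz2, Cck, A830018L16Rik and Parp8.

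The genes less frequent in pLSOs were led by Ucn and Col4a3 (a pLSO minus LOC difference of -82.1 points each), Isl1 (-78.6), Anxa2 (-74.7), Fxyd6 (-65.9), Gata3 (-65.1), Calca and Nxph1 (-64.0 each), Col4a4 (-60.7) and Atp8a1 (-60.4). Calca was not absent from the pLSOs: 15 of 52 held it, with a median of 1 TPM and a highest value of 58 TPM in these neurons. It was in 26 of 28 LOCs and in 5 of 8 controls, at up to 315 TPM, and was in 10 of the 26 pLSOs with fewer genes and 5 of the 26 with more. cell_57 and cell_76, the 2 LOCs without Calca, held 2 of the 12 LOC markers each. Without these 2 libraries 20 genes were higher and 26 lower in pLSOs. Gata3 was in 7 pLSOs at up to 42 TPM, Anxa2 in 2 at up to 53 TPM, Nxph1 in 2 and Fxyd6 in 1.

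**Figure D5:**
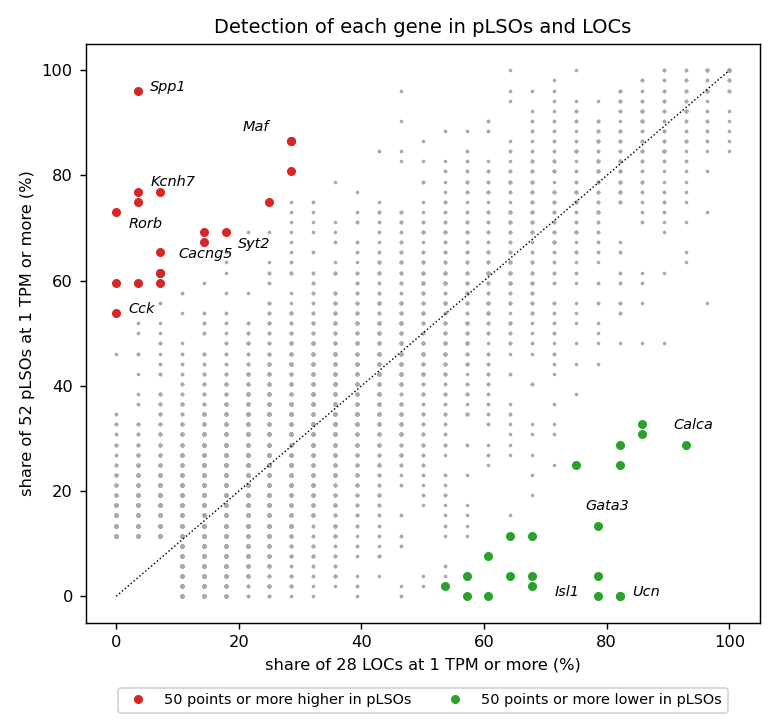
Share of 52 pLSOs (vertical axis, percent) against share of 28 LOCs (horizontal axis, percent) at 1 TPM or more for 8725 genes; red and green points differ by 50 percentage points or more, and the dotted line marks equal shares. Spp1, Kcnh7 and Rorb stand at the upper left and Ucn and Isl1 at the lower right, while most genes lie near the line.

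Markers of other cells were present in the pLSO libraries. The summed TPM of 7 oligodendrocyte markers was 0 in the lowest, 288.5 in the median and 12919 in the highest pLSO, against 389 to 42992 in the controls, and Mbp (a myelin protein) was in 44 pLSOs and in all 8 controls. Cnp was in 44 pLSOs and Mobp in 36. The 7 astrocyte markers summed to a median of 744 TPM (0 to 8619), against 0 to 2527 TPM in the controls, of which Aldoc was in 39, S100b in 29, Slc1a2 in 24 and Gfap in 15 pLSOs. The 7 microglia markers summed to a median of 2 TPM (0 to 1817), with C1qb in 17 pLSOs and Cx3cr1 in 4. The 8 endothelial and blood markers summed to a median of 6 TPM but reached 22325 TPM in the highest pLSO, with Hba-a2 (haemoglobin alpha) in 36 and Hbb-bs in 20, and Flt1, Cldn5 and Ly6c1 in no more than 2. Their part in the genes that varied between neurons was not tested.

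The recordings describe the same 52 neurons with measures that do not depend on RNA. The resting potential had a median of -64.85 mV (-83.8 to -54.9 mV), the input resistance of 43.25 MΩ (16.7 to 147 MΩ) and the membrane time constant of 3.75 ms (0.80 to 11.6 ms). Rheobase, the smallest current step that evoked a spike, was 150 pA in the lowest, 450 pA in the median and 850 pA in the highest neuron. Spikes had a median width at mid-height of 0.395 ms (0.21 to 0.87 ms) and a median amplitude of 96.8 mV. The firing pattern was set by the label, and the Onset and Sustained neurons overlapped in each of these features. Median input resistance was 41.7 MΩ in Onset and 88.8 MΩ in Sustained neurons, and median rheobase was 500 and 250 pA.

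Spontaneous synaptic currents were brief. Excitatory currents of 49 pLSOs decayed with a median time constant of 0.74 ms (0.50 to 1.04 ms), below the fastest LOC at 1.12 ms, and had a median amplitude of 25.5 pA. Inhibitory currents of 51 pLSOs decayed with a median of 1.51 ms (0.44 to 3.60 ms), within which range part of the LOCs also fell, and had a median amplitude of 28.2 pA. The rheobase of all 30 labelled LOCs lay at or below 300 pA with a median of 0 pA, and thus overlapped with the pLSOs, whose lower quartile was 300 pA. Sag amplitude separated the classes almost completely, with at most 2.0 mV in the LOCs and at least 1.8 mV in the pLSOs.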

How the data were processed

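The authors aspirated single LSO neurons after recording, made libraries with a modified Smart-seq2 protocol and processed the reads with Trim Galore 0.4.2, STAR, Picard 1.115 and featureCounts on mm10, per the labels. The deposited table holds TPM rounded to whole numbers by the authors, treated here as a score because its scale changes along the rows. Each library sums to between 999773 and 1000026 TPM over 38887 genes, and depth in reads is unknown. Names and positions are from Gencode M21 (GRCm38), which names 37570 genes.

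Genes were counted as detected at 1 TPM or more. Shares, exact intervals, phi coefficients and quartiles were computed with Python 3.11.15, pandas 2.3.3, NumPy 2.4.6 and SciPy 1.17.1, and figures with matplotlib 3.10.9. The functions were tested on simulated data. With 1 sample per group, no test was made.

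The members and gene lists were chosen with earlier results of these data known. Libraries were left out when their label did not match their place in the cluster means published by the study, which were taken apart by least squares, so the choice depends in part on its clustering. cell_39 matched its cluster mean and was left out because the study's supplement gives different values for it. The supplement also differs for cell_31, cell_33 and cell_35, which were kept. The text names all markers, up to 6 members of each list by share and any at 20% to 80%, the leading 15, 20 and 10 genes of the rankings and the 5 highest and lowest pairs. Some members at 20% to 80% are given by count only. Some genes these rules name are not reported here.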

Additional observations from a re-analysis of the deposited data

Results flagged for a closer look

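In the 8 negative controls, 7 quantities were checked for a value far from the others, and 3 had one. The 7 microglia markers summed to 455 TPM in 1 control, with 181 TPM in the next. The 12 LOC markers summed to 349 TPM in 1 control, with 83 TPM in the next. The 5 pLSO markers summed to 591 TPM in 1 control, with 132 TPM in the next. Chance alone marks about 1 in 20 groups of normally distributed values. These sums are skewed, with a median of 7.5 TPM over the controls for the LOC markers, so the rate for them is not known.

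Libraries outside the comparisons also carried signal above the 8 controls. NC5 held 782 TPM of Spp1, where the controls used reached 229 TPM. NC6 held 3104 detected genes, 23 TPM of Kcnh7 and 138 TPM of Slc17a6, where these controls reached 1271 genes, 2 TPM and 28 TPM. cell_54, labelled as a Sustained pLSO, held 1887 TPM of Calca and 28 TPM of Ucn, where the controls reached 315 and 6 TPM.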

How the results depend on the processing

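Leaving out cell_31, cell_33 and cell_35, cell_45, or cell_45 with cell_46, choices made after seeing the data, kept each count within 1.5 times its value. Of 128 recomputed values, 106 stayed within their spread, interval or 1.5 times and 22 did not, none with a changed direction. At 10 TPM the median number of detected genes was 1625.5, 44 genes were in nearly all pLSOs, 2080 were variable, 8 were more frequent than in LOCs and 50.0% of neurons held 4 or 5 markers. In the 26 neurons with more detected genes, 223 genes were in nearly all (28 of them in at most 1 control), 69 were more frequent than in LOCs and 88.5% of neurons held 4 or 5 markers. In the 26 with fewer, 10 genes were more frequent than in LOCs and phi of Sst and Calb2 was 0.80. Genes in nearly all pLSOs numbered 167 at a share of 90% (16 in at most 1 control) and 41 when all 52 neurons were required (0 in at most 1 control). The 3 of these genes in at most 1 control became 1 with all 56 labelled pLSOs and 0 with all 10 controls. Variable genes numbered 1984 at 30% to 70%. At 40 points 55 genes were more and 43 less frequent than in LOCs. With a pseudocount of 10 the Spp1 difference was 4.26. Ranking variable genes on log2(TPM + 1) kept 5 of the leading 20. Whether depth or biology set the counts that moved was not tested. No paired analysis was possible because numbers shared by neurons and controls only name libraries, and no test was made. Detection is limited by the unknown read depth and by rounding to whole TPM.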
